A study of Mus musculus with 4 samples.

Results

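The contractile cytoskeleton genes described here are 10 mouse genes: the actins Acta1, Acta2, Actc1 and Actg2, the myosin light chain Myl9, the actin-binding proteins Tagln, Cnn1 and Cald1, and the tropomyosins Tpm1 and Tpm2. They were found by gene name on the arrays, where 18 of 61307 probes carry one of the names, and naming by accession gave the same 18 probes. They are 10 of 49662 genes and transcripts named on the arrays. The genes were chosen by their function and their difference between the groups on these same arrays, so that difference is given as a description, without a test. Of the 10 genes, 9 had a probe that passed the filter on dim probes, and Cnn1 did not.

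Muscle cells hold their own actins, made by separate genes: Acta1 in skeletal muscle, Actc1 in heart, and Acta2 and Actg2 in smooth muscle. Fibroblasts build their filaments mainly from the cytoplasmic actins Actb and Actg1, and add smooth muscle actin, transgelin and myosin light chain when they turn into contractile myofibroblasts. Many of these genes are known targets of serum response factor (SRF), which binds a DNA element called the CArG box together with MRTF coactivators, and MRTF enters the nucleus when actin monomer is used up by filament growth.

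The cells were C3H10T1/2, a line of mouse embryo fibroblasts used in assays of chemical transformation. After transformation, cells given diethyl maleate (DEM, 0.25 mM), an electrophile that depletes glutathione, were measured on 2 arrays, and cells left untreated on 2 arrays. Cells of both groups had first been transformed in culture with the carcinogen 3MC at 2.5 µg/ml for 2 days and then the tumour promoter TPA at 100 ng/ml, given 2 times a week for 2 weeks, with 4 further weeks in normal medium. The series has no arrays of cells that were not transformed, and the length of the DEM exposure and whether foci were picked are not given in the sources used here.

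RNA was hybridised with 1 dye, and each array had 61657 spots that were not controls. Between 47.79% and 52.73% of them were well above background. Levels are log2 values of processed signal, from which the array's own 75th percentile was subtracted. That percentile was a signal of 449.9 and 412 on the DEM arrays and 701 and 747 on the untreated arrays. No label says whether the 2 arrays of each group stand for separate cultures. The p-values thus rest on the spread among these 4 samples alone, and that spread may be technical. All 4 arrays lay on 1 slide with 1 scan time, DEM arrays in row 2 and untreated arrays in row 1, so slide row and treatment cannot be told apart. The fit across 24556 genes and transcripts (limma, Benjamini-Hochberg adjusted p under 0.05) called 3800 higher (15.5%) and 2892 lower (11.8%) with DEM, and the median difference over all of them was 0.16 on the log2 scale.

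The muscle actins are close relatives, so the 60-base sequence of 1 probe each of Acta1, Acta2 and Actc1 is shown, as the array files give it, 5′ to 3′. No probe of the 10 genes shared a run of 20 bases with any other probe of the array. Transcript sequences were not used here, so exons under the probes and matches to related transcripts were not examined.
Acta1: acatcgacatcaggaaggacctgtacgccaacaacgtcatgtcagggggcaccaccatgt
Acta2: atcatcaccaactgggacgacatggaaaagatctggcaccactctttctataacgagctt
Actc1: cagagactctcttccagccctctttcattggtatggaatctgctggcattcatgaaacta

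Promoters are shown because CArG boxes are known in muscle actin genes. RefSeq windows of 300 bases on GRCm38.p6 (250 before to 50 after the annotated start) were at hand for 8 of the 10 genes, 9 windows in all. Tagln and Actg2 had none. A CArG box stood in 3 of the 9, those of Acta1, Actc1 and Myl9, against 1.63% of all 32851 windows. Only exact matches to CCWWWWWWGG (W for A or T) were counted, a pattern that is the same on both strands. Boxes that depart from it by a base were not searched. The Acta2 window, without an exact match, holds ccctatatgg, which departs by a base. Such near matches also stand upstream of Actc1 (ccttacatgg) and Myl9 (ccttgtaagg). How many of all windows hold one was not counted, so nothing is read from them. The 150 bases before the start are given for Acta1 (chr8:123894776-123894925, minus strand) and Actc1 (chr2:114052876-114053025, minus strand), and the 30 bases around the box for Myl9 (chr2:156775293-156775322, plus strand), with the box in capitals.
Acta1: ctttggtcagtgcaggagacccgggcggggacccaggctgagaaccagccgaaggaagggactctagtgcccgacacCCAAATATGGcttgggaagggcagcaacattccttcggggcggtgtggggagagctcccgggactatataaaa
Actc1: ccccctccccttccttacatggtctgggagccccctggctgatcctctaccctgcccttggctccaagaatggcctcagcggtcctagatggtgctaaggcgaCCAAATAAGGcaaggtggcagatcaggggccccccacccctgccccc
Myl9: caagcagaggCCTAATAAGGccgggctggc

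The box of Acta1 starts at base -73 from the annotated start, that of Actc1 at base -47 and that of Myl9 at base -161. CATTCC, the core of the element bound by TEAD factors, was searched on both strands and stood in 4 of the 9 windows (Acta1, Acta2, Tpm1 and 1 of 2 Cald1 windows), against 14.7% of all windows. TATAAA, searched on both strands, stood in 3 (Acta1, Actc1 and the other Cald1 window), against 13.6%. In these windows no match overlapped another. A window without a match says only that these letters are not in it.

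All measured muscle actin probes were lower on both DEM arrays than on both untreated arrays. Acta1, skeletal muscle actin, had levels of -1.04 and -0.90 on the DEM arrays, against 2.52 and 2.76 on the untreated arrays. Its mean was -0.97 ± 0.10 with DEM and 2.64 ± 0.17 untreated (SD, n = 2 each), a log2 difference of -3.61, or 12.2-fold lower. Over the 4 pairings of a DEM with an untreated array, the difference ran from -3.81 to -3.42, so the gap between groups was far wider than the gap within either.

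Actc1, the cardiac actin, showed 1.16 and 1.43 on the DEM arrays, against 4.88 and 5.20 on the untreated arrays. It was 13.5-fold lower, a log2 difference of -3.75 (-4.04 to -3.46 over the pairings). The signals behind these levels were 1003 and 1109 with DEM and 20688 and 27501 untreated, all well above background. Actg2, the actin of gut and other visceral smooth muscle, had 2.36 and 2.68 with DEM, against 4.34 and 4.51 untreated. Its log2 difference of -1.90 (-2.15 to -1.66), 3.74-fold, was smaller than those of Acta1 and Actc1, and its groups did not overlap either.

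Acta2, the smooth muscle actin that marks myofibroblasts, had 3 probes, which gave the same direction and unlike sizes. The brightest probe had levels of 4.61 and 4.79 on the DEM arrays, against 8.09 and 8.26 on the untreated arrays, a difference of -3.47 on the log2 scale (11.1-fold lower). The probe whose sequence is printed above had 3.94 and 4.29 with DEM, against 5.79 and 5.99 untreated, a log2 difference of -1.77 (3.42-fold lower). The remaining probe had -1.49 and -0.42 with DEM, against 3.99 and 3.90 untreated, a log2 difference of -4.90 (29.9-fold lower). None of the 3 had overlapping groups, and the pairings of the printed probe (-2.05 to -1.50) did not reach those of the other two probes (-3.65 to -3.30 and -5.48 to -4.32). A fold for Acta2 therefore depends on the probe, from 3.42 to 29.9.

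**Figure D1:**
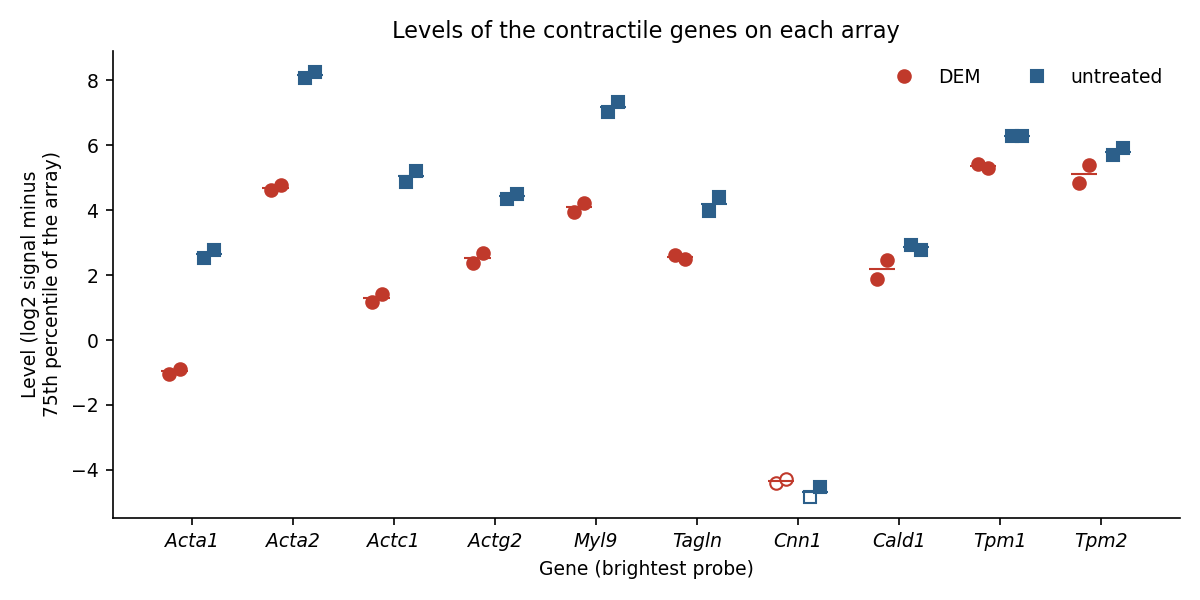
Level of each contractile gene on each array (log2 units from that array's 75th percentile) for its brightest probe, DEM arrays as red circles on the left and untreated arrays as blue squares on the right, with a line at each mean and open symbols where the probe was not well above background. DEM points lie below untreated points for the 9 measured genes, for Acta1 with means of -0.97 with DEM and 2.64 untreated. Levels of different genes are not comparable.

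Myl9, the regulatory light chain through which phosphorylation switches on smooth muscle and non-muscle myosin II, had levels of 3.94 and 4.23 on the DEM arrays, against 7.02 and 7.32 on the untreated arrays. It was 8.50-fold lower, a log2 difference of -3.09 (-3.38 to -2.79 over the pairings). Its low DEM levels stood well apart from both untreated ones. Tagln, transgelin or SM22-alpha, an actin-bundling protein of smooth muscle, had 2.62 and 2.50 with DEM, against 3.99 and 4.42 untreated, on its brighter probe. That is a log2 difference of -1.64 (3.13-fold lower). The other Tagln probe had -1.26 and -1.80 with DEM, against 1.01 and 1.50 untreated, a difference of -2.78 (6.89-fold lower). Both probes separated the groups, and the mean of the 2 probes gave -2.21.

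Cald1, caldesmon, which binds actin and restrains myosin, differed less. Its brighter probe had 1.87 and 2.48 on the DEM arrays, against 2.94 and 2.77 on the untreated arrays, a log2 difference of -0.68 (-1.07 to -0.29 over the pairings). The other probe had 1.35 and 1.58 with DEM, against 2.22 and 2.57 untreated, a difference of -0.93. The higher DEM array of the brighter probe came close to the lower untreated one, and without DEM array 1 the difference was -0.37. Cnn1, calponin 1, was not measured: its probe had -4.42 and -4.29 with DEM, against -4.82 and -4.54 untreated, and was well above background on 1 untreated array only. No direction is read from it.

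Tropomyosins lie along the actin filament and set which myosins and bundling proteins can reach it. Tpm1 had 4 probes. The brightest had levels of 5.42 and 5.29 on the DEM arrays, against 6.28 and 6.29 on the untreated arrays, a log2 difference of -0.93 (1.90-fold lower). Another probe of the same RefSeq transcript had 4.07 and 3.89 with DEM, against 5.10 and 5.18 untreated, a difference of -1.16. Both show a gap that is small in fold terms and wide against the spread within each group.

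A probe for other Tpm1 transcript variants had 0.94 and 0.50 with DEM, against 1.99 and 1.92 untreated, a log2 difference of -1.24. The remaining Tpm1 probe, for still other variants, was well above background on neither DEM array (-5.60 and -4.52) and on both untreated arrays (-2.51 and -2.93). It was at least 2.84-fold lower with DEM, where the DEM level is bounded by the lowest spot well above background on each array. That bound was computed for the reported processing only. Taking the mean of the Tpm1 probes in place of the brightest gave -1.42.

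Tpm2, beta-tropomyosin, had 4.82 and 5.39 with DEM, against 5.69 and 5.92 untreated, on its brighter probe, a log2 difference of -0.69 (-1.09 to -0.29). The other probe had 4.30 and 4.84 with DEM, against 5.11 and 5.58 untreated, a difference of -0.78. The groups did not overlap, but the DEM arrays of the brighter probe lay further from each other than the closest pair across groups, and without DEM array 1 the difference of the brighter probe was -0.41.

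**Figure D2:**
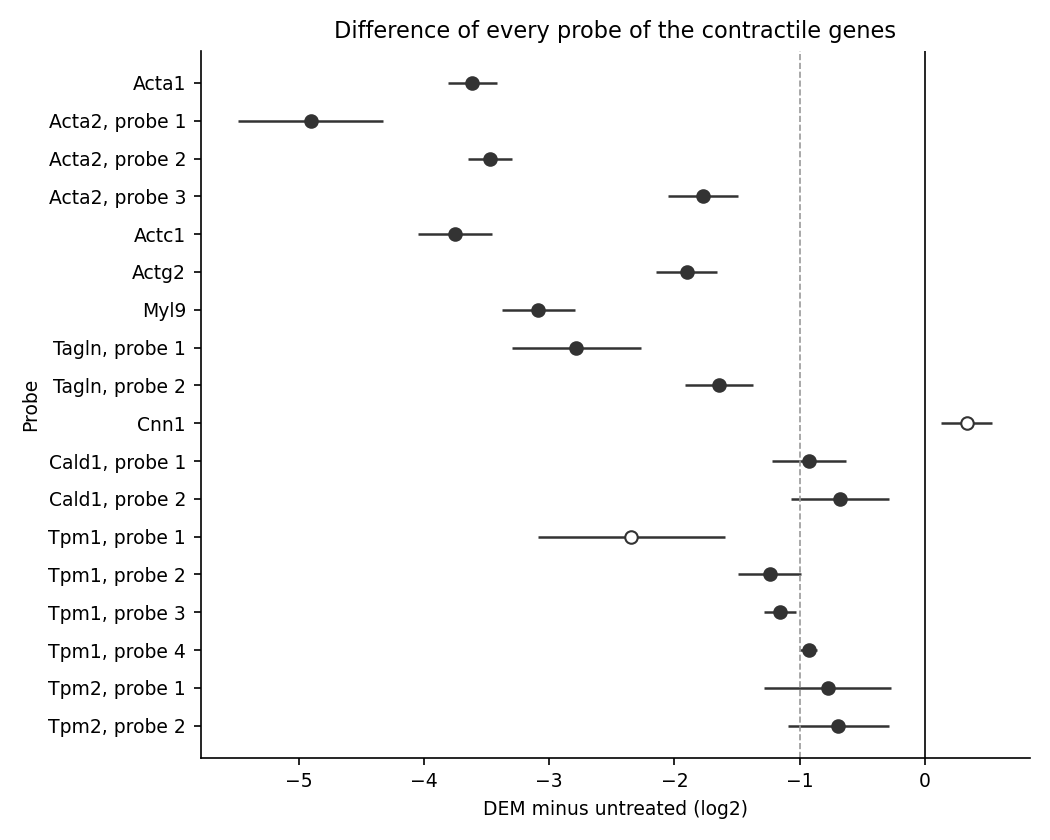
Difference of DEM minus untreated means (log2) for all 18 probes, with bars from the lowest to the highest difference over the 4 pairings of arrays, a dashed line at 2-fold lower, and open symbols for probes not well above background on every array. Of the probes, 17 lie left of 0, from -4.90 for an Acta2 probe to -0.68 for a Cald1 probe, and the Cnn1 probe, near background, lies at 0.33.

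Of the 9 measured genes, 6 were at least 2-fold lower with DEM (Acta1, Acta2, Actc1, Actg2, Myl9 and Tagln), where 11.6% of all genes were. Just outside that limit was Tpm1 at -0.93, and just inside it Tagln at -1.64. Both DEM arrays were below both untreated arrays in all 9, as in 26% of all genes. The median difference of the 9 was -1.90, against 0.16 over all genes. These counts describe genes chosen for this difference. In RNA from whole cultures, fewer cells that hold a transcript and less of it per cell cannot be told apart.

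No other scaling or array choice turned the sign of a measured gene in 15 other settings. Some of these say nothing about the sign. The fit without a trend and the replicate block cannot change a difference of means. The other filters on dim probes gave the same differences, and the authors' values nearly the same. Acta1 ran from -3.77 to -3.32, Acta2 from -3.82 to -3.38, Actc1 from -3.95 to -3.59, and Myl9 from -3.36 to -2.94. Actg2 ran from -2.11 to -1.74 and Tagln from -2.21 to -1.43. Tpm1 crossed the 2-fold line in several of them, which gave 7 genes at least 2-fold lower with quantile, cyclic loess or spike-in scaling, with the percentile over detected probes and with the mean of probes, against 6 otherwise.

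**Figure D3:**
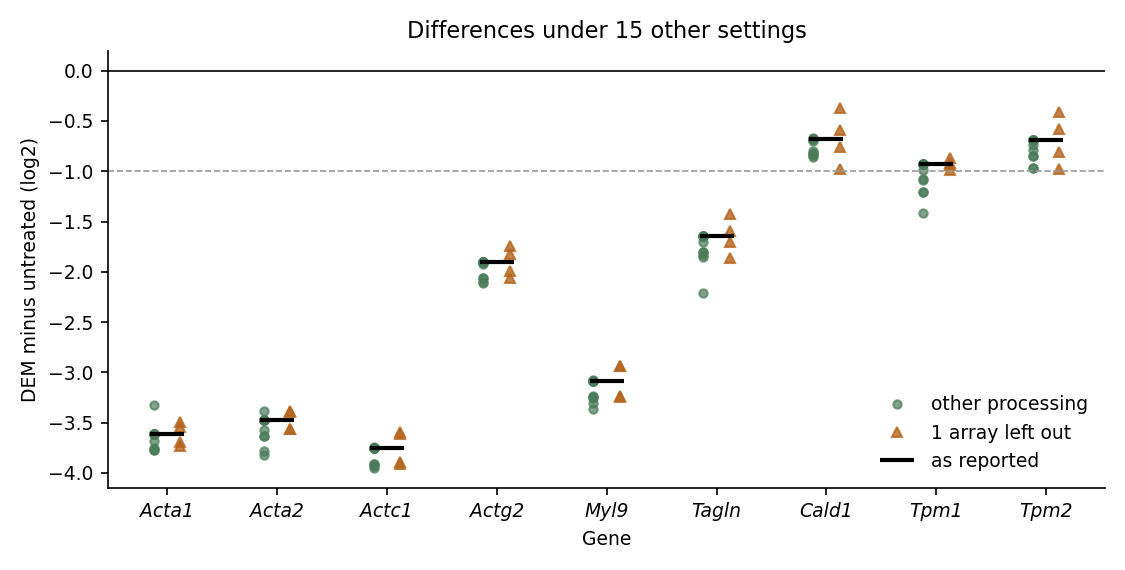
Difference of DEM minus untreated (log2) for the 9 measured genes as reported (black line), under 11 other ways of processing (green circles) and with 1 array left out (brown triangles), with a dashed line at 2-fold lower. Some green circles repeat the reported value, as those settings left it unchanged. Every symbol lies below 0; Cald1 and Tpm2 come closest to it, at -0.37 and -0.41 without DEM array 1.

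Companion genes of the contractile apparatus were put in 6 lists of 167 genes, of which 131 were measured. These lists, and the marker lists further on, were chosen with earlier results of these data known. Their shares beside those of all genes are thus a description. With DEM, 32 of the 131 fell and 12 rose (limma, adjusted p under 0.05), or 24.4% lower and 9.16% higher, against 11.8% and 15.5% of all genes. Their median difference was -0.12, against 0.16 over all genes. Under scaling to spike-in RNA, 7 fell and 0 rose by limma (22 and 0 at an unadjusted p under 0.05), and the 75th percentile then stood at -2.78 and -3.70 from the spike-in level on the DEM arrays and at -2.76 and -3.41 on the untreated arrays. Of the companion genes named in this text, Lmod1, Tns1, Actn3, Tnnt1 and Ppp1r14a passed under it. Without untreated array 1, 14 fell and 2 rose, and without untreated array 2, 11 fell and 1 rose. With no filter on dim probes 21 rose, and 8 rose in cyclic loess, in eBayes without a trend and with the mean of probes. With probes required to be well above background on all 4 arrays, 30 fell and 14 rose.

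**Figure D4:**
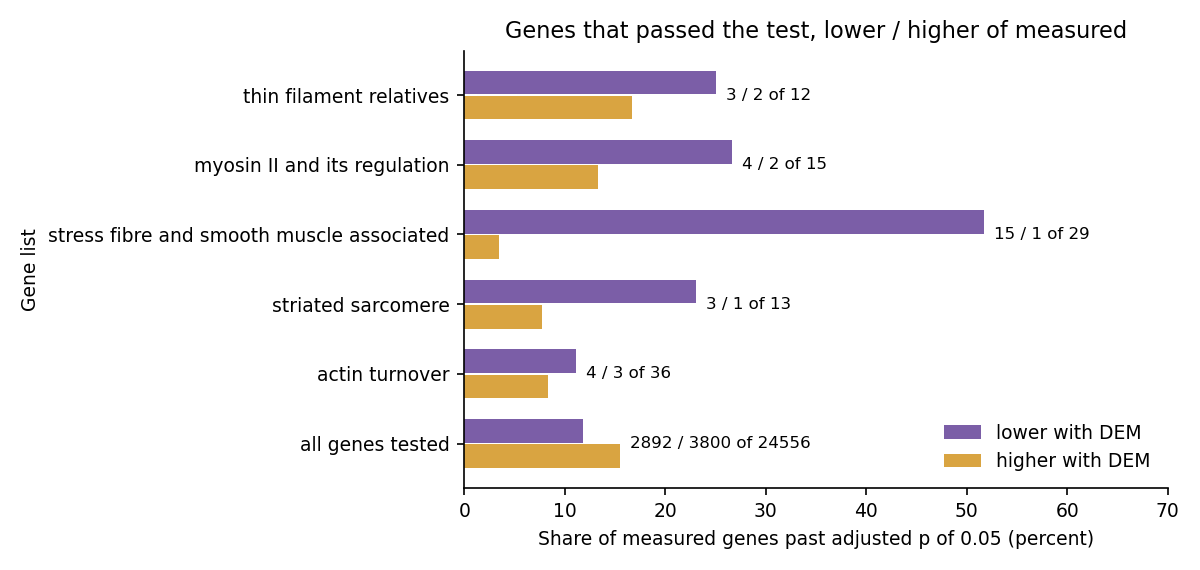
Share of measured genes past an adjusted p of 0.05 (percent, limma) in each of 5 of the 6 companion lists and over all genes tested, lower with DEM in purple and higher with DEM in yellow, with the counts beside the bars. The stress fibre and smooth muscle associated list has 15 of 29 genes lower and 1 higher; over all genes 2892 of 24556 are lower and 3800 higher.

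Among thin filament relatives (other actins, tropomyosins, calponins, transgelins, tropomodulins and leiomodins), 3 of 12 measured genes fell and 2 rose, with a median difference of -0.30. That is 25% lower and 16.7% higher, against 11.8% and 15.5% of all genes. Lmod1, leiomodin 1, a nucleator of actin filaments in smooth muscle, had levels of 0.08 and 0.83 on the DEM arrays, against 3.78 and 3.77 on the untreated arrays. It fell by 3.32 ± 0.27 on the log2 scale (SE, limma adjusted p = 0.00149). Cnn2, the calponin of non-muscle cells, fell by 1.42 ± 0.21 (adjusted p = 0.0066), with 4.55 and 4.96 with DEM, against 6.02 and 6.34 untreated. Tmod2, a tropomodulin that caps pointed filament ends, was not well above background on either DEM array. It passed the filter on dim probes through the untreated arrays alone, which favours a call of lower. Its level was at least 2.14-fold lower with DEM (limma adjusted p = 0.01). That bound holds for the reported processing only: with normexp background correction the log2 difference of Tmod2 was -0.37 and the call was lost (0.0524).

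The cytoplasmic actins had no call in common. The Actb probe was much dimmer than the brightest Actg1 probe, which had 7.46 and 7.53 with DEM, against 7.77 and 7.90 untreated. Which transcripts these probes read was not examined. Actb, beta-actin, had 2.84 and 2.80 on the DEM arrays, against 2.01 and 1.21 on the untreated arrays, and rose by 1.21 ± 0.28 on its 1 kept probe (adjusted p = 0.0272 by limma). The 2 untreated levels lay further apart than the 2 DEM levels. It did not pass with cyclic loess (0.0515), without a trend (0.0506), with spike-in scaling (0.768) or without untreated array 2 (0.126). Actg1, gamma-actin, differed by -0.34 (adjusted p = 0.109), and it passed as lower with quantile (0.00818) and cyclic loess (0.00769) scaling, with the percentile over detected probes (0.0317) and with the mean of its probes (0.0278).

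Tpm3, a cytoskeletal tropomyosin, rose by 0.74 ± 0.17 (adjusted p = 0.0262 by limma) on the brighter of 2 probes, and the other probe differed by 0.09. Its call was lost with the mean of its probes (0.113), with quantile (0.0603), cyclic loess (0.0579) or spike-in scaling, and without a trend (0.0651). Tpm4 differed by -0.28 (adjusted p = 0.309), Cnn3 by -0.32 (0.276) and Tagln2 by -0.97 (0.0569). Tagln2 passed as lower in several other settings: with normexp (0.0285), quantile (0.0281) and cyclic loess (0.0263), with the percentile over detected probes (0.0371), with the stricter filter on dim probes (0.0409) and without DEM array 2 (0.00291). Tpm4 did so with quantile (0.0498) and cyclic loess (0.0366) and without DEM array 2 (0.0434), and Cnn3 without DEM array 1 (0.0412). Left without untreated array 1 or 2, Tpm3 had an adjusted p of 0.168 or 0.117 and Tmod2 of 0.0748 or 0.0987, and Cnn2 had 0.0609 without array 2. The list had 5 lower without DEM array 2, 1 lower without untreated array 2 or with spike-in scaling, and 6 lower with quantile or cyclic loess scaling.

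Of myosin II genes and their regulators, 4 of 15 measured genes fell and 2 rose, with a median difference of -0.42. That is 26.7% lower and 13.3% higher, against 11.8% and 15.5% of all genes. Myh10, the heavy chain of non-muscle myosin IIB, had 0.16 and 0.31 on the DEM arrays, against 2.03 and 2.22 on the untreated arrays. It fell by 1.89 ± 0.19 (adjusted p = 0.00247 by limma), and its second probe differed by -1.56. Mylk, the kinase that phosphorylates the regulatory light chain, fell by 1.23 ± 0.20 (0.00977), with a second probe at -0.18. Myl12a, a non-muscle regulatory light chain, fell by 1.18 ± 0.19 (0.00865).

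Ppp1r14a encodes CPI-17, an inhibitor of myosin phosphatase in smooth muscle. It had -6.29 and -3.59 with DEM, against -0.77 and -0.54 untreated, and was called lower (adjusted p = 0.0148 by limma). The DEM levels lay far apart, and the lower of them was not well above background, so the size of the fall is not settled. The log2 difference was -4.29 as fitted, -2.94 without DEM array 1, -5.64 without DEM array 2 and -1.86 with normexp. Ppp1r14b, a relative of the same inhibitor family, rose by 1.27 ± 0.14 (0.00304), and Ppp1r12c, a targeting subunit of the phosphatase, rose by 0.84 ± 0.16 (0.0154).

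The heavy chains Myh9 and Myh11 showed no call. Myh9, the heavy chain of non-muscle myosin IIA, had 7.43 and 7.44 with DEM, against 7.18 and 7.02 untreated (0.33, adjusted p = 0.123 by limma). Myh11, the smooth muscle heavy chain, had -2.98 and -6.29 with DEM, against -3.67 and -4.38 untreated (-0.61, adjusted p = 0.689), so its untreated arrays lay between the DEM arrays. Its DEM level of -6.29 was not well above background. Left with that level alone, without DEM array 1, it passed as lower (0.013), a call that rests on a level within background, and without DEM array 2 it had the other sign. Without untreated array 1 or 2, 1 gene of the list fell and 1 rose. Adjusted p was then 0.067 or 0.101 for Mylk, 0.0743 or 0.0851 for Myl12a, 0.0738 or 0.0864 for Ppp1r14a and 0.0889 or 0.126 for Ppp1r12c.

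Genes associated with stress fibres and smooth muscle, the list nearest to the contractile genes in function, had 15 of 29 measured genes lower and 1 higher, with a median difference of -0.87. That is 51.7% lower and 3.45% higher, against 11.8% and 15.5% of all genes. Tns1, tensin 1, which ties integrin adhesions to actin, had 0.47 and 0.68 on the DEM arrays, against 2.67 and 2.95 on the untreated arrays. It fell by 2.23 ± 0.20 (adjusted p = 0.0018 by limma), and all 3 of its probes were lower. Des, desmin, the intermediate filament of muscle, fell by 2.05 ± 0.24 (0.00359), with -3.33 and -3.46 with DEM, against -1.38 and -1.30 untreated.

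Fhl1 and Csrp2, LIM domain proteins of muscle, fell by 1.62 ± 0.17 (adjusted p = 0.00269 by limma) and 1.58 ± 0.19 (0.00381). Vcl, vinculin, which links adhesions to actin, fell by 1.27 ± 0.17 (0.00505). Actn1, the alpha-actinin that crosslinks stress fibres, fell by 0.87 ± 0.24 (0.042). Smtn, smoothelin, differed by -0.69 (0.0826) and Flna, filamin A, by -0.25 (0.251). Flna passed as lower with quantile (0.027) and cyclic loess (0.0261) scaling, Smtn with the percentile over detected probes (0.0464), and Actn1 was lost without a trend (0.0673). Des stood at -1.10 with normexp. Flnc, the muscle filamin, rose by 0.93 ± 0.18 (0.0165), but 1 of its 4 probes differed by -0.001 and the mean of its probes did not pass (0.0823).

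Counts of lower genes in this list stood at 8 without untreated array 1, 6 without untreated array 2 and 3 with spike-in scaling, and at 15 and 18 without DEM array 1 and 2. The calls lost without untreated array 2 included Vcl (adjusted p = 0.059 by limma), Des (0.0537), Actn1 (0.261) and Flnc (0.127). Without untreated array 1, Actn1 (0.0863) and Flnc (0.0644) were lost, and without DEM array 1 Actn1 was (0.0708). Smtn passed as lower without DEM array 2 (0.0213). The number higher was 2 without DEM array 1 or without the filter on dim probes.

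**Figure D5:**
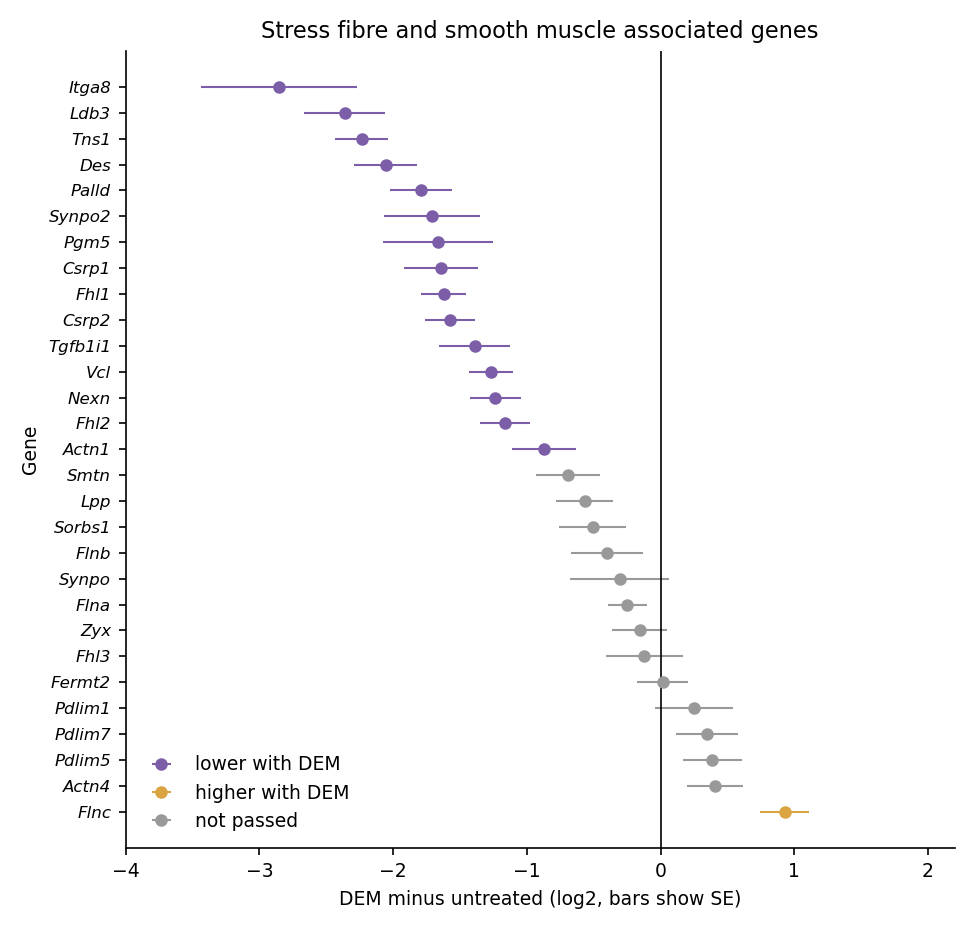
Difference of DEM minus untreated (log2) with its SE for the 29 measured stress fibre and smooth muscle associated genes, coloured by the limma call at an adjusted p of 0.05. The 15 genes called lower run down to -2.85, and the 1 gene called higher, Flnc, lies at 0.93.

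Most genes of the striated sarcomere were not measured: 24 of 37 had no probe above the filter. Of the 13 measured, 3 fell and 1 rose, with a median difference of 0.27, against 0.16 over all genes. That is 23.1% lower and 7.69% higher, against 11.8% and 15.5% of all genes. Actn3, the alpha-actinin of fast muscle fibres, had -3.65 and -3.24 on the DEM arrays, against 0.11 and 0.42 on the untreated arrays, and fell by 3.71 ± 0.26 (adjusted p = 0.00105 by limma). Tnnt1, slow skeletal troponin T, had -4.65 and -6.39 on the DEM arrays, where it never stood well above background, against -0.89 and -0.37 on the untreated arrays. It passed the filter on dim probes through the untreated arrays alone, which favours a call of lower. Its level was at least 12.0-fold lower with DEM (0.00384). With normexp the log2 difference was -2.52 for Actn3 and -2.07 for Tnnt1, both past the threshold, so the bound of Tnnt1 holds for the reported processing only.

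Tnni3, cardiac troponin I, fell by 1.05 ± 0.27 (adjusted p = 0.0345 by limma), and Mylpf, a light chain of fast muscle myosin, rose by 1.33 ± 0.32 (0.028). Tnni3 was lost with normexp (-0.34, 0.104) and with no filter on dim probes (0.0685). Without untreated array 1 or 2 the adjusted p was 0.186 or 0.223 for Tnni3 and 0.177 or 0.0957 for Mylpf. Without DEM array 1, 2 genes of the list rose, and 6 rose with no filter on dim probes.

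Regulators of muscle actin genes were measured singly. Srf had 3.08 and 3.21 on the DEM arrays, against 3.90 and 4.06 on the untreated arrays, and fell by 0.84 ± 0.17 (adjusted p = 0.0165 by limma), with its second probe at -0.93. Its coactivators Mrtfa (-0.63, adjusted p = 0.142) and Mrtfb (-0.38, 0.489) did not pass. The second Mrtfa probe differed by -1.89, and the mean of the 2 probes passed as lower (-1.26, 0.0198). Myocd, myocardin, the SRF coactivator of muscle, was never well above background. Tead3, a TEAD factor, fell by 1.73 ± 0.27 (0.00861), while its relative Tead4 rose by 1.38 ± 0.30 (0.0217).

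Without untreated array 1 or 2 the adjusted p (limma) of Srf was 0.0879 or 0.135, that of Tead3 0.0719 or 0.0992 and that of Tead4 0.127 or 0.114. Without DEM array 2, Mrtfa (0.00613) and Mrtfb (0.0428) passed as lower. With normexp the difference of Tead3 was -0.56, still past the threshold.

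Genes of actin turnover stood near the share of all genes: of 36 measured, 4 fell and 3 rose, or 11.1% and 8.33%, against 11.8% and 15.5% of all genes. Their median difference was 0.20, against 0.16 over all genes. Those called are given singly. Tmsb4x, thymosin beta 4, which holds actin monomers, had 5.79 and 6.08 on the DEM arrays, against 7.46 and 7.12 on the untreated arrays, and fell by 1.36 ± 0.18 (adjusted p = 0.00555 by limma). Dstn, destrin, which severs filaments, fell by 0.99 ± 0.17 (0.0113), Coro1c, a coronin, by 1.16 ± 0.25 (0.0216) and Twf2, a twinfilin that binds actin monomers, by 0.80 ± 0.20 (0.0312).

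Wasl, N-WASP, an activator of the Arp2/3 complex, rose by 0.81 ± 0.18 (adjusted p = 0.024 by limma). Ssh1, the slingshot phosphatase that activates cofilin, rose by 1.41 ± 0.35 (0.0328), and Arpc1b, an Arp2/3 subunit, by 0.55 ± 0.16 (0.0471). Without untreated array 2, 1 gene fell, Tmsb4x, and without untreated array 1 none of the list passed (limma; 4 lower and 5 higher at an unadjusted p under 0.05), with Tmsb4x at 0.0515. Twf2 had 0.0514 without DEM array 1 and 0.0604 without a trend, Ssh1 had 0.0529 with no filter on dim probes, and Coro1c stood at -0.50 with normexp. Arpc1b passed in few settings: it was lost with quantile (0.157) and cyclic loess (0.234), with the percentile over detected probes (0.0988), no filter (0.0842), the mean of probes (0.0522), no trend (0.117) and without DEM array 2 (0.0683).

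Markers of the cell types a culture could hold were read beside these results. For the labelled cell type, all 9 fibroblast markers were well above background on at least 1 array. Their summed level, in multiples of the 75th percentile signal of the array, was 819 and 1232 on the DEM arrays, against 1425 and 1483 on the untreated arrays. Of them, 5 fell and 0 rose (limma; 5 and 0 at an unadjusted p under 0.05), or 55.6% lower, against 11.8% of all genes lower and 15.5% higher. Named after their values were seen, these were Fap (at least 12.8-fold lower), Dcn (a log2 difference of -3.11), Pdgfrb (-1.81), Pdgfra (-1.33) and Col1a2 (-0.91). The other 4 did not pass: Thy1 (0.23), Col1a1 (-0.04), Vim (-0.28) and S100a4 (-0.54). Fap passed the filter on dim probes through the untreated arrays alone, which favours a call of lower, and its bound was computed for the reported processing only. With either untreated array left out, 2 of the 9 fell.

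Of the 7 smooth muscle markers, 4 are also in the stress fibre list and 2 in the thin filament or myosin lists. Together the 7 summed to 3.13 and 3.93 with DEM, against 18.9 and 18.7 untreated, and Myocd was never well above background. Lmod1, given above, was the brightest of them on the untreated arrays (3.78 and 3.77). Of the 6 measured, 4 fell and 0 rose (limma), or 66.7% lower, against 11.8% of all genes. Smtn and Myh11 did not pass. Among 9 skeletal muscle markers, 7 were never well above background, the myogenic factors Myod1, Myog, Myf5 and Myf6 among them. The list summed to 0.27 and 0.19 with DEM, against 1.03 and 1.27 untreated. Its 2 measured markers were Des and Tnnt1, both given above. Of 6 cardiac markers, 3 were never well above background, and the 6 summed to 0.18 and 0.34 with DEM, against 0.15 and 0.15 untreated. Background itself differed: the lowest level well above it was -4.28 and -4.16 on the DEM arrays, against -4.82 and -4.80 untreated. Sums of dim probes, as for the cardiac, endothelial and epithelial markers, are therefore not read as differences in expression. The 5 pericyte markers summed to 2.95 and 5.61 with DEM, against 8.66 and 8.996 untreated, with Rgs5 never well above background. Of the 2 measured pericyte markers, Mcam, named after its value was seen, fell by 4.87 (adjusted p = 0.00351 by limma), and Cspg4 differed by -0.55 (0.238). Their part in the results for the contractile genes was not tested.

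Endothelial markers (4) summed to 0.15 and 0.05 with DEM, against 0.10 and 0.10 untreated, and Cdh5 and Kdr were never well above background. Tek, the 1 measured, was at least 1.23-fold lower (adjusted p = 0.0114 by limma). It passed the filter on dim probes through the untreated arrays alone, which favours a call of lower. With normexp 0 endothelial markers were called. Epithelial markers (4) summed to 0.11 and 0.14 with DEM, against 0.15 and 0.15 untreated, and Cdh1 and Krt18 were never well above background. Macrophage markers (4) summed to 0.38 and 0.38 with DEM, against 0.55 and 0.55 untreated, and Ptprc and Adgre1 were never well above background. Of the 2 measured, Lyz2 fell by 1.85 (adjusted p = 0.014 by limma) and Cd68 differed by 0.27 (0.44). Tek, Lyz2 and Cd68 were named after their values were seen.

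The genes whose 4 levels lay nearest to those of Acta2 were sought among 11365 genes well above background on every array, by the Euclidean distance of levels centred on each gene's mean. They were Anpep, a membrane aminopeptidase (distance 0.05), Phf11b (0.10), the Eph receptor Ephb6 (0.12), Phf11a (0.25) and Stard10, a lipid transfer protein (0.26). Anpep had -0.58 and -0.38 on the DEM arrays, against 2.95 and 3.14 on the untreated arrays. With 4 arrays in 2 groups, likeness is mostly the size of the group difference, which ran from -3.52 for Anpep to -3.31 for Phf11a.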

How the data were processed

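RNA of 2 DEM and 2 untreated samples was measured on 1-colour Agilent arrays. Spot intensity was, per the file headers, extracted with Agilent Feature Extraction 10.7.3.1 as background-corrected processed signal. The deposited log2 values of the authors equalled log2 processed signal minus a constant per array for at least 99.969% of probes within 0.01 (column medians -4.298 and -4.359 for DEM, -4.389 and -4.35 untreated), and served as an alternative.

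Processed signal was taken to log2, minus the 75th percentile of each array over non-control spots. Spots marked as outliers (130 probes) were left out, and no spot was saturated. A probe entered if 2 or more of the 4 arrays had it well above background (31771 probes), the brightest standing for its gene; of 61307 probes, 34708 were named through a RefSeq gene table and the rest kept the name in the files. Of the 56 companion genes named or called, 24 had several kept probes, and in 22 of these all had the same direction. The DEM and untreated groups were tested in R 4.3.3 with limma 3.58.1 (lmFit, eBayes with trend, two-sided, 2 residual and 4.04 prior degrees of freedom) on all 24556 genes, checked on simulated data. Figures used matplotlib 3.10.9. Settings tried as alternatives are given in the closing section.

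The contractile genes, the companion and marker lists and the rule for named genes were chosen with earlier results of these data known. That rule took all 10 contractile genes, up to 4 genes per list and direction with the smallest adjusted p, 23 genes whatever their result, and the 5 genes nearest to Acta2. Protein sequences were not used here. Some results of 1 companion list and 1 probe sequence are not reported here; they stay in the counts.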

Additional observations from a re-analysis of the deposited data

How the results depend on the processing

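All 9 measured contractile genes were lower with DEM in 15 other settings, and 6 or 7 of them at least 2-fold. Some of these settings left the differences as reported. Counts of called genes depended more on the setting (limma, adjusted p under 0.05). Over all genes, 3800 were higher and 2892 lower. With 1 array left out, 636 to 4458 were higher and 790 to 3787 lower, and for the companion lists 1 to 16 were higher and 11 to 40 lower; both low ends came without an untreated array. Higher genes numbered 6447 with normexp, 2525 with cyclic loess and 17240 with no filter on dim probes (21 in the companion lists). Spike-in scaling left 354 higher and 856 lower, and in the companion lists 0 higher (0 at an unadjusted p under 0.05) and 7 lower. The cause was not tested. The median difference over all genes was 0.16, against 0.07 with quantile, 0.01 with cyclic loess, 0.003 with the percentile over detected probes, 0.01 with spike-in scaling and 0.47 with no filter. Among companion genes named, 4 values changed sign, none past the threshold as reported: Myh11 to 0.36 with normexp, and with 1 array left out Myh11 ran from -2.26 to 1.05, Mrtfb from -0.90 to 0.13 and Rhoa from -0.35 to 0.18. The replicate number as a block gave 4455 higher and 3362 lower (companion lists 16 and 35; actin turnover 6 higher, against 3; Tagln2 lower, adjusted p = 0.00861); same-numbered arrays share only a number (correlation of their deviations 0.08 over 2 pairs). Precision is limited by 2 arrays per group, and near background by signal, as for Cnn1.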
